A study of Mus musculus with 12 samples.

Results

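The 47 genes described here encode the proteins that start mitosis, build the spindle, attach and separate the chromosomes and divide the cell. They were chosen by name, from what the genes are known to do, out of 37614 mouse genes with counts in 12 RNA-seq libraries. Earlier results of these data were known when they were chosen. All 47 are protein-coding, and all 47 passed the filter on low counts that left 15711 genes for testing. The lowest count of any of them in any library was 180. They fall into 8 role groups: transcription factors (2 genes), the CDK1 engine (7), the spindle checkpoint with its target (7), kinetochore (7), chromosomal passenger complex (4), spindle (8), cytokinesis (5) and chromosome structure (7).

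The libraries form 4 groups of 3. MLL-ENL preGM and WT preGM are committed granulocyte and macrophage precursors, sorted as lineage-negative, Kit-positive cells without Sca1, CD150, CD105, CD41 or CD16/32. MLL-ENL HSC and WT HSC are haematopoietic stem cells, sorted as lineage-negative cells with Sca1, Kit and CD150 but without CD48. The MLL-ENL cells came from a strain named Col1a1-MLL/ENL in the labels, which carries the leukaemia fusion gene MLL-ENL at the Col1a1 locus, and the WT cells from C57bl/6 WT mice. Before RNA was taken, cells of all groups, the WT ones too, spent 48 h in OptiMEM that held 10% FCS, 1 µg/ml doxycycline, 10 to 50 ng/ml SCF, 5 ng/ml IL3 and 5 ng/ml G-CSF. No MLL-ENL library without doxycycline was analysed here, so the fusion and other differences between the strains cannot be told apart. The labels used here do not name the promoter of the fusion gene, the age of the mice or any pooling of animals. Nor do they say whether replicates are separate animals or cultures. The p-values therefore cover no more than the spread among these libraries, and that spread may be technical.

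Mitosis is driven by the kinase CDK1 bound to a B-type cyclin, with CDC25 phosphatases and the kinases PLK1 and AURKA in the loop that switches it on. Most of the genes needed are transcribed late in the cell cycle, when B-MYB (Mybl2) and FOXM1 act with the MuvB complex at promoters that hold a cell cycle homology region (CHR), often beside CCAAT boxes. The spindle checkpoint then holds back CDC20 and the anaphase-promoting complex until every kinetochore is attached, after which the cyclins and securin are degraded and the chromatids part. Non-dividing cells keep these transcripts low, which is why Mki67 and Top2a are used as marks of cycling cells. Adult stem cells of the bone marrow are mostly quiescent in the animal, whereas granulocyte and macrophage precursors divide often.

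The promoters of 38 of the 47 genes were read from the RefSeq-derived table used here (assembly GRCm38.p6). They gave 41 windows of 250 bases before to 50 bases after a transcription start. Tpx2, Incenp, Ccna2, Smc4, Aurkb, Foxm1 and Spc24 were not in the table. Cdc25c and Kif20a were left out before the search, so whether the table holds them was not checked. A CHR hexamer, searched as TTTGAA or TTCGAA on either strand, was in the window of 30 of the 38 genes (78.9%), against 21.7% of all 27025 genes in the table. A CCAAT box, searched as CCAAT on either strand, was in 29 of 38 (76.3%), against 41.1% of all genes. Both stood in the window of 27 of 38 (71.1%), against 8.61% of all genes. The letters TTTCCCGC or TTTGGCGC, searched on either strand as E2F motifs, were in 2 of 38 (5.26%), against 1.80% of all genes. A match of letters is a description and not a binding site, and these motifs do not overlap each other in their letters except where CCAAT boxes on the 2 strands share bases.

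The promoters of 4 genes are printed because these genes carry the results below and show how the motifs are laid out. Each is the 250 bases before the start as RefSeq places it, 5′ to 3′ on the strand of the gene, with CHR hexamers and CCAAT boxes of either strand in capitals. Ube2c lies at chr2:164769679-164769928 (plus strand), Plk1 at chr7:122159185-122159434 (plus strand), Cdk1 at chr10:69352913-69353162 (minus strand) and Top2a at chr11:99024190-99024439 (minus strand).
Cdk1: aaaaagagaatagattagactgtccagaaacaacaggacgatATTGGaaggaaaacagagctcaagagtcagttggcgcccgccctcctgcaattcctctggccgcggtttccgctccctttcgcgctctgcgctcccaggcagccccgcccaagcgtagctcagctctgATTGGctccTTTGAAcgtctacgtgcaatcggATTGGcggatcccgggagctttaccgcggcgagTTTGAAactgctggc
Top2a: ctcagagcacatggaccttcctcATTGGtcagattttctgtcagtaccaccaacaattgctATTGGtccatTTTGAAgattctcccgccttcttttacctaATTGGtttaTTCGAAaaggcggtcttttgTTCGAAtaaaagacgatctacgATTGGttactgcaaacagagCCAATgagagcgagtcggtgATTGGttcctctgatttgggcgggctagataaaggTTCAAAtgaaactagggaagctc
Ube2c: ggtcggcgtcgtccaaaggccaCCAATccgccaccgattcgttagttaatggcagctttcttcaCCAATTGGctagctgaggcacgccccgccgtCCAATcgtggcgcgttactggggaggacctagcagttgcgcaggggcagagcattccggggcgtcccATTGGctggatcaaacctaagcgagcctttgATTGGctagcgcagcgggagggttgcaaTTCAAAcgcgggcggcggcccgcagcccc
Plk1: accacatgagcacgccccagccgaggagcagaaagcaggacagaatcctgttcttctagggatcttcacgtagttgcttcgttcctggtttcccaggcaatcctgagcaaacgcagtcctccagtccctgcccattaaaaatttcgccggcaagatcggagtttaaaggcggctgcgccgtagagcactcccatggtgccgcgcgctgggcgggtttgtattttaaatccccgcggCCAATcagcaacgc
Cdk1 held CHR hexamers at -71 and -15 from the start and CCAAT boxes at -208, -80 and -48. Top2a held 4 CHR hexamers, at -179, -140, -120 and -23, among 6 CCAAT boxes. Ube2c had 1 CHR hexamer, at -29, downstream of its CCAAT boxes. The Plk1 run holds a CCAAT box at -14, and its CHR hexamer lies after the start, at 31. Ccnb1, not printed, held CCAAT boxes at -99 and -67 and no CHR hexamer in these letters within the window. The GENCODE M21 annotation used for the gene counts starts Cdk1 at 69352938 and Ube2c at 164769898, both inside the printed runs. In 26 of the 41 windows, bases 1 to 30 after the start lay in a GENCODE M21 transcript of the gene. Positions near the start thus depend on the annotation.

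Gene counts summed to between 38466345 and 50326107 per library in MLL-ENL preGM, 34741957 and 44493484 in WT preGM, 18980469 and 23453504 in MLL-ENL HSC, and 14529769 and 18158157 in WT HSC. In preGM, 2 libraries stood apart from the rest of their group over all genes. Replicates otherwise differed by a chi-square of 15.8 to 30.4 per degree of freedom, whereas pairs with MLL-ENL preGM replicate 1 or WT preGM replicate 2 reached 405 to 511. Counts of the 47 genes in preGM are given with and without these 2 libraries, and calls of other genes that are lost without them are named as such. Marker levels followed the labelled cell types: a list of stem cell genes summed to 87.7 to 334 CPM in the 6 preGM libraries and 937 to 1411 CPM in the 6 HSC libraries, and a granulocyte and monocyte list to 11350 to 31985 CPM in preGM and 458.7 to 611 CPM in HSC. Lists for other lineages were detected too. A megakaryocyte and erythroid list summed to 791.6 to 1222 CPM in MLL-ENL preGM, 252 to 438 in WT preGM, 2215 to 2351 in MLL-ENL HSC and 2164 to 2280.5 in WT HSC, and a mast cell, basophil and eosinophil list to 298 to 341 CPM in MLL-ENL preGM, 1617 to 2646 in WT preGM and at most 13.2 in HSC. Lymphoid and stromal lists summed to at most 97.5 and 126 CPM in a library. The part of these cells in the results was not tested. Within these lists Cd3e, Cd3g, Slc4a1, Dcn, Lum and Tpsab1 were at 0 in all 12 libraries, while other genes were not. CPM here means counts per 1000000 after TMM scaling, which sets the libraries level on the bulk of their genes.

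**Figure D1:**
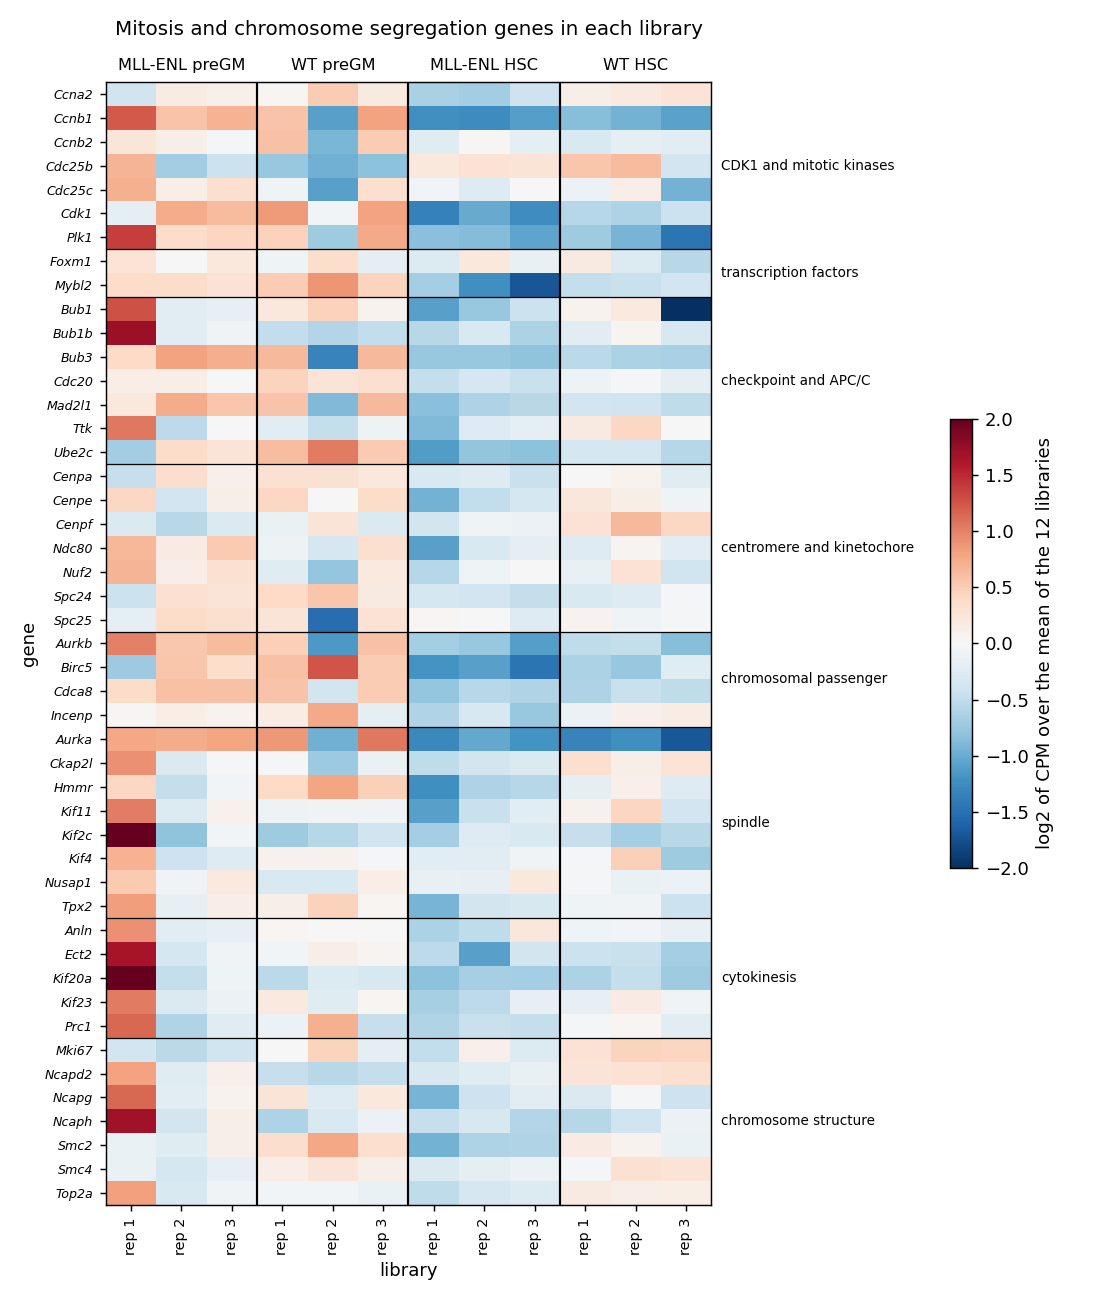
Level of each of the 47 genes in each library, drawn as log2 of its CPM over its mean CPM across the 12 libraries, with colours ending at -2 and 2. Rows are genes by role and columns are replicates 1 to 3 of MLL-ENL preGM, WT preGM, MLL-ENL HSC and WT HSC. The summed CPM of the genes was lowest in the 3 MLL-ENL HSC libraries (3417 to 3931), and MLL-ENL preGM replicate 1 stands out from its 2 partners.

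The 47 genes together took 7647, 6305 and 6565 CPM in MLL-ENL preGM, 6961, 6022 and 6952 CPM in WT preGM, 3417, 3931 and 3863 CPM in MLL-ENL HSC, and 4880, 5069 and 4721 CPM in WT HSC. The 3 MLL-ENL HSC libraries lay below all others, the WT HSC libraries came next, and the preGM groups overlapped. In bulk RNA, fewer dividing cells and less of these transcripts per cell cannot be told apart. Of the 47 genes, 30 had their highest group mean in MLL-ENL preGM, 13 in WT preGM, 4 in WT HSC and 0 in MLL-ENL HSC. The lowest group mean fell in MLL-ENL HSC for 32 genes, in WT HSC and in WT preGM for 6 each, and in MLL-ENL preGM for 3. Between replicates, the median coefficient of variation over the genes was 26.9% in MLL-ENL preGM, 17.5% in WT preGM, 11.7% in MLL-ENL HSC and 10.5% in WT HSC.

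Per length, by the authors' RPKM of the principal transcript, Birc5 was the most abundant in all 4 groups and Ube2c the next, except in MLL-ENL preGM, where Bub3 (240.5 RPKM) stood between them. Birc5, whose product survivin is the passenger subunit that brings the complex to centromeres, had mean RPKM of 310 in MLL-ENL preGM, 402 in WT preGM, 170 in MLL-ENL HSC and 252 in WT HSC. Ube2c, the ubiquitin-conjugating enzyme of the anaphase-promoting complex, had 211, 278, 157 and 198 in the same order of groups. Foxm1 was among the lowest, at 3.71 RPKM in MLL-ENL preGM, 2.67 in WT preGM, 4.40 in MLL-ENL HSC and 3.61 in WT HSC. Birc5 and Ube2c also had the shortest principal transcripts of these genes, 947 and 967 bases. Over all genes, the median share of a gene's counts before the middle of its exons was 18.5% to 33.5% by library. By CPM, which is not divided by length, Top2a had the highest mean in WT HSC (459 CPM) and MLL-ENL HSC (322 CPM). Bub3 did in MLL-ENL preGM (570 CPM) and Birc5 in WT preGM (552 CPM). The part of length in the RPKM ranking was not tested.

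The comparison of MLL-ENL HSC with WT HSC asks whether the stem cell gate differed in mitotic transcripts between the strains. Most of the 47 genes had lower levels in MLL-ENL HSC: 40 had a log2 change below 0 and 7 above, where 47.9% and 51.8% of all 15711 genes tested did. Their median log2 change was -0.31, against 0.02 over all genes. With library size alone in place of TMM, the median of all genes was 0.21, 30 of the 47 genes were below 0 and 17 above, and 40 were below the median of all genes under either scaling. In 24 of the 47 genes every MLL-ENL library lay below every WT library, and in 0 above, against 17% and 17.8% of all genes. By edgeR's quasi-likelihood test with Benjamini-Hochberg adjustment over all genes, 0 rose and 0 fell, where 3.19% of all genes rose and 0.929% fell. At an unadjusted p under 0.05, 11 were lower and 0 higher, against 7.09% and 11.3% of all genes, and DESeq2 called 3 lower and 0 higher, against 2.91% and 5.63%.

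The number of calls depended on which libraries were fitted together. The edgeR fit shares 1 estimate across all 12 libraries, with a common biological coefficient of variation of 0.321. When only the 6 HSC libraries were fitted, 15 of the 47 genes fell and 0 rose, against 8.69% and 8.99% of the 14189 genes then tested. When the 2 preGM libraries that stood apart were left out of the fit of all groups, 18 fell and 0 rose, against 11.1% and 10.2%. The changes themselves hardly moved: the median over the genes was -0.30 and -0.31 in these fits. The genes that fell in the HSC-only fit were Ccna2, Cdk1, Ube2c, Cenpe, Cenpf, Incenp, Birc5, Hmmr, Ckap2l, Prc1, Mki67, Top2a, Smc2, Smc4 and Ncapd2.

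Among the transcription factors, Mybl2 (chromosome 2, 163054687 to 163084688; coordinates are of GRCm38, from 1), which encodes B-MYB, had 18.8, 12.8 and 9.19 CPM in MLL-ENL HSC, against 21.5, 22.1 and 23.1 CPM in WT HSC. The groups did not overlap, and the log2 change was -0.70 ± 0.25 (SE, adjusted p = 0.135). Foxm1 (chromosome 6, 128362967 to 128376146), the forkhead factor of the same programme, had 13.6, 18.9 and 14.7 CPM in MLL-ENL HSC, against 18.4, 13.5 and 11.1 CPM in WT HSC, with overlapping groups and a log2 change of 0.13 ± 0.25 (SE, adjusted p = 0.822).

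In the CDK1 engine, Ccna2 (chromosome 3, 36564865 to 36572150), the cyclin A2 gene needed from S phase to early mitosis, had 76.2, 73.5 and 89.4 CPM in MLL-ENL HSC, against 129, 137 and 144 CPM in WT HSC. All MLL-ENL libraries were below all WT libraries, and its log2 change of -0.78 ± 0.23 (SE, adjusted p = 0.0746) had the lowest p of the 47 genes. In the HSC-only fit it was -0.76 ± 0.12 (SE, adjusted p = 0.000818), and it fell there. Cdk1 (chromosome 10, 69335146 to 69352938), the mitotic kinase, had 125, 158 and 134 CPM in MLL-ENL HSC, against 215, 207 and 238 CPM in WT HSC. Its groups were apart too, with a log2 change of -0.66 ± 0.30 (SE, adjusted p = 0.255). Ccnb1 (chromosome 13, 100778650 to 100786570), cyclin B1, had 75.2, 73.6 and 81.8 CPM in MLL-ENL HSC, against 97.3, 91.5 and 83.5 CPM in WT HSC, again without overlap but with a smaller log2 change of -0.24 ± 0.36 (SE, adjusted p = 0.769). Plk1 (chromosome 7, 122159439 to 122169873), a kinase of mitotic entry, had 38.5, 37.5 and 33.1 CPM in MLL-ENL HSC, against 41.8, 36.05 and 24.9 CPM in WT HSC, and there the groups overlapped. Plk1, Ccnb2 and Cdc25c had log2 changes of 0.09, 0.11 and 0.14, so the engine's genes did not all lean one way. Cdc25b (chromosome 2, 131186949 to 131198497), which encodes a phosphatase that activates CDK1, stood at 18.9, 19.8 and 19.6 CPM in MLL-ENL HSC, against 23.97, 25.1 and 12.4 CPM in WT HSC, with WT replicate 3 below the rest.

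All 7 genes of the checkpoint group had log2 changes below 0, from -0.62 to -0.17, and 5 of them had no overlap between the groups. Ttk (chromosome 9, 83834689 to 83872389), the kinase MPS1 that starts checkpoint signalling, had 12.9, 19.9 and 20.9 CPM in MLL-ENL HSC, against 26.99, 31.6 and 23.6 CPM in WT HSC. Every MLL-ENL value was below every WT value, and the log2 change was -0.62 ± 0.33 (SE, adjusted p = 0.346). Ube2c gave 106, 133 and 131 CPM in MLL-ENL HSC, against 180.5, 181 and 155 CPM in WT HSC, with no overlap and a log2 change of -0.48 ± 0.29 (SE, adjusted p = 0.391). Bub1b (chromosome 2, 118598211 to 118641591), which encodes the checkpoint protein BUBR1, had 36.2, 42.7 and 34.3 CPM in MLL-ENL HSC, against 45.6, 54.98 and 42.3 CPM in WT HSC, and its groups overlapped by 1 library. Bub1, a checkpoint kinase, had 23.3, 29.4 and 36.8 CPM in MLL-ENL HSC, against 52.2, 56.6 and 11.1 CPM in WT HSC: WT replicate 3 was far below its partners.

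At the kinetochore, all 7 genes were below 0 as well, from -0.66 to -0.05. Cenpf (chromosome 1, 189640606 to 189688086), a large kinetochore protein also bound to the nuclear envelope, had 62.04, 74.99 and 73.5 CPM in MLL-ENL HSC, against 97.4, 125 and 107 CPM in WT HSC. The groups were apart, and the log2 change was -0.64 ± 0.22 (SE, adjusted p = 0.124). The microtubule motor gene Cenpe had a log2 change of -0.66 ± 0.26 (SE, adjusted p = 0.175). Nuf2 (chromosome 1, 169497934 to 169531464), part of the NDC80 complex that grips microtubules, stood at 44.2, 61.7 and 65.2 CPM in MLL-ENL HSC, against 59.01, 80.3 and 49.7 CPM in WT HSC, with overlap. In the passenger complex, Incenp (chromosome 19, 9872296 to 9899551), its scaffold, had 29.2, 35.7 and 26.3 CPM in MLL-ENL HSC, against 40.96, 47.9 and 49.5 CPM in WT HSC, with the groups apart and a log2 change of -0.60 ± 0.25 (SE, adjusted p = 0.198). Birc5 (chromosome 11, 117849251 to 117855743) read 136, 148 and 113 CPM in MLL-ENL HSC, against 202, 185 and 265 CPM in WT HSC, also apart, with a log2 change of -0.71 ± 0.33 (SE, adjusted p = 0.259). Aurkb (chromosome 11, 69045647 to 69051664), its kinase, had 58.4, 55.8 and 43.7 CPM in MLL-ENL HSC, against 65.8, 67.4 and 52.1 CPM in WT HSC, with overlap and a log2 change of -0.23 ± 0.34 (SE, adjusted p = 0.768).

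The spindle genes were mixed, with 5 below 0 and 3 above. Hmmr (chromosome 11, 40701395 to 40733422), which encodes a spindle assembly protein, had 45.4, 69.3 and 71.4 CPM in MLL-ENL HSC, against 93.6, 114 and 89.1 CPM in WT HSC. Its groups were apart, and the log2 change was -0.67 ± 0.27 (SE, adjusted p = 0.188). Aurka (chromosome 2, 172356190 to 172370535), the centrosomal kinase, had 43.8, 52.6 and 46.8 CPM in MLL-ENL HSC, against 42.5, 45.7 and 33.2 CPM in WT HSC, with overlap and a log2 change of 0.24 ± 0.36 (SE, adjusted p = 0.772), the highest of the 47. Kif2c (chromosome 4, 117159639 to 117182639), a microtubule depolymerase, had 20.5, 27.2 and 26.5 CPM in MLL-ENL HSC, against 23.7, 20.5 and 22.3 CPM in WT HSC, and the groups overlapped. In cytokinesis, Kif23 (chromosome 9, 61915905 to 61946774), a motor of the central spindle, had 30.9, 34.2 and 43.8 CPM in MLL-ENL HSC, against 43.9, 55.2 and 46.9 CPM in WT HSC: MLL-ENL replicate 3 just missed WT replicate 1, and the groups were apart. Kif20a (chromosome 18, 34624613 to 34633277) shares 33.2% of its exon bases with another gene and had 44.4, 49.7 and 49.4 CPM in MLL-ENL HSC, against 50.8, 56.3 and 48.3 CPM in WT HSC, with overlap.

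The chromosome group had the lowest median of the 8 role groups, -0.51, with 7 of 7 genes below 0 and 5 of them without overlap. Mki67 (chromosome 7, 135689784 to 135716361), which encodes Ki-67, the coat protein of mitotic chromosomes, had 138, 208 and 160.5 CPM in MLL-ENL HSC, against 238, 265 and 261 CPM in WT HSC. Top2a (chromosome 11, 98992943 to 99024189), the topoisomerase that untangles sister chromatids, had 291, 329.9 and 344 CPM in MLL-ENL HSC, against 471, 452 and 454 CPM in WT HSC. Both genes separated the groups, with log2 changes of -0.59 ± 0.25 (SE, adjusted p = 0.205) and -0.51 ± 0.29 (SE, adjusted p = 0.359). Smc2 (chromosome 4, 52439243 to 52488260), an ATPase of both condensins, had 155, 196 and 198 CPM in MLL-ENL HSC, against 337, 315 and 275 CPM in WT HSC. Its groups were apart, with a log2 change of -0.76 ± 0.24 (SE, adjusted p = 0.0999) in the fit of all libraries and -0.74 ± 0.12 (SE, adjusted p = 0.00119) in the HSC-only fit. Ncapd2 (chromosome 6, 125168007 to 125191701), a subunit of condensin I, had 76.5, 81.6 and 86.8 CPM in MLL-ENL HSC, against 115, 117 and 119 CPM in WT HSC, again with no overlap, and a log2 change of -0.52 ± 0.25 (SE, adjusted p = 0.285). Its partners in condensin I, Ncapg and Ncaph, had log2 changes of -0.26 and -0.10.

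Other measurements also differed between the HSC groups. Intron counts per 100 gene counts were 4.79 to 5.96 in MLL-ENL HSC and 3.72 to 4.10 in WT HSC, and the mitochondrial share of counts was 6.32% to 6.70% and 5.40% to 5.92%. The stem cell list summed to 1335 to 1411 CPM in MLL-ENL HSC and 937 to 1034 CPM in WT HSC, with 5 of its 20 genes higher and 1 lower by the test. The granulocyte and monocyte list summed to 458.7 to 523 CPM in MLL-ENL HSC and 496 to 611 CPM in WT HSC, and the megakaryocyte and erythroid list to 2215 to 2351 CPM and 2164 to 2280 CPM. The stromal and endothelial list gave 66.0 to 75.2 CPM in MLL-ENL HSC and 35.4 to 44.6 CPM in WT HSC. The part of these in the lower mitotic levels was not tested. Counted exon by exon, 417 of 604 exons of the 47 genes with at least 60 counts over both groups were lower in MLL-ENL HSC (69.0%). These exons repeat the changes of their genes, and the share over exons of all genes is not given here.

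**Figure D2:**
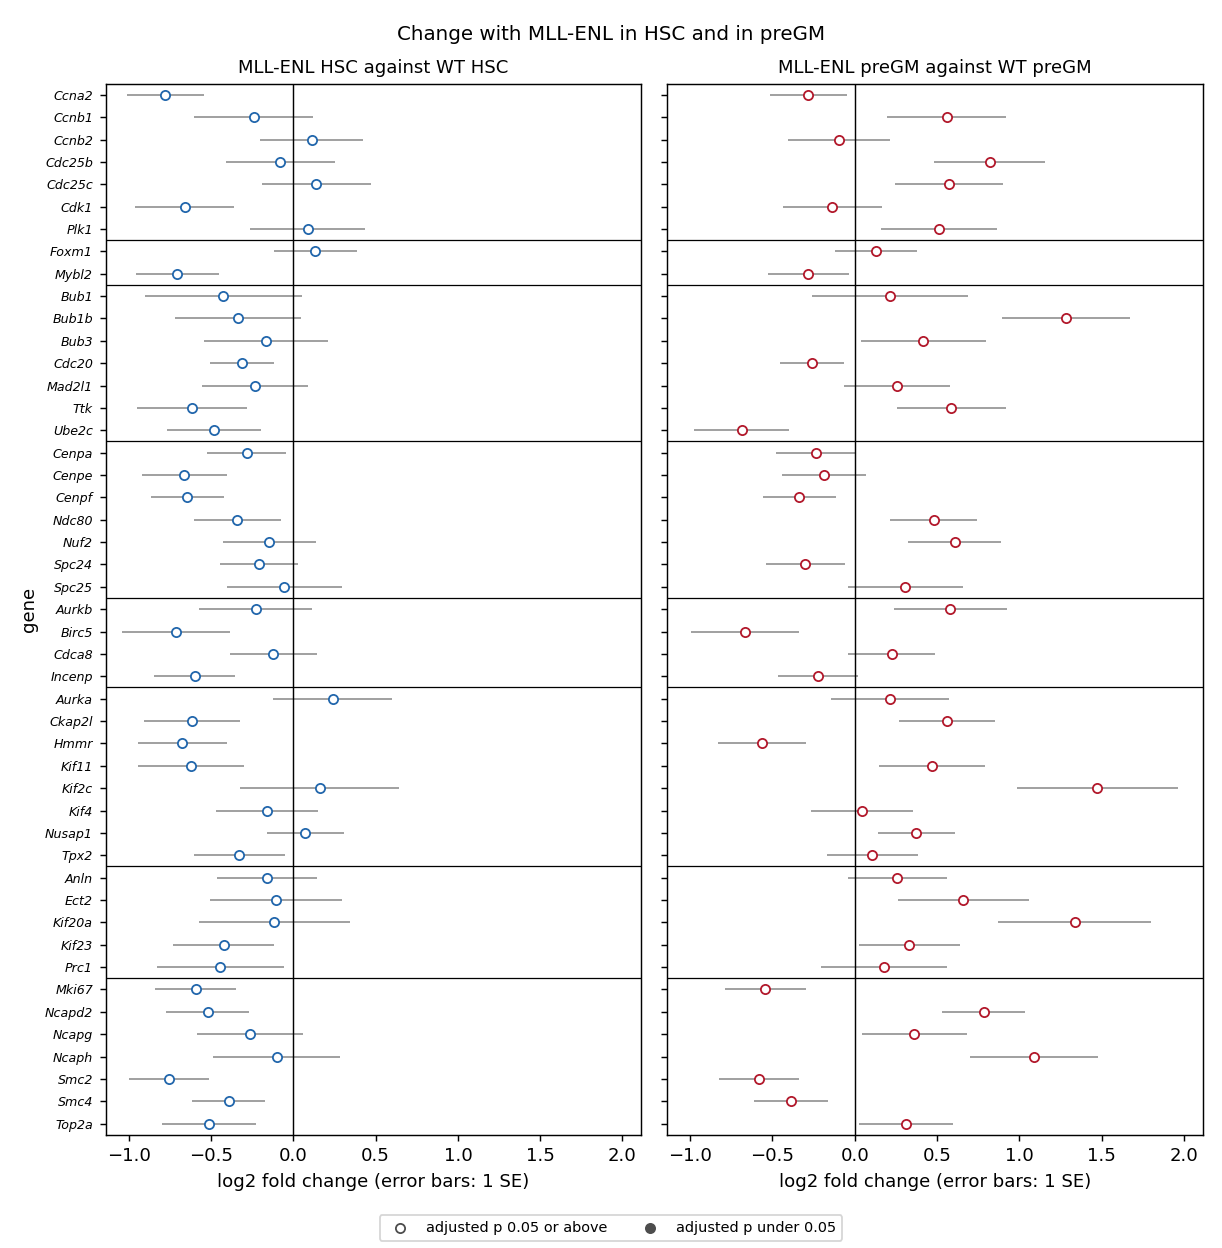
Log2 change of each of the 47 genes, MLL-ENL over WT, in HSC (left) and preGM (right), by role, with bars of 1 SE from the edgeR fit of 12 libraries (3 per group). Open points have an adjusted p of at least 0.05, which was so for all 47 genes in both comparisons. In HSC 40 points lie below 0, in preGM 31 lie above.

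In preGM, the levels of the 47 genes leaned the other way, but that lean rested on 1 library. With MLL-ENL, 31 genes had a log2 change above 0 and 16 below, where 54.9% and 44.8% of all genes did. The median was 0.26, against 0.08 over all genes. With library size alone the median of all genes was 0.41, with 40 of the 47 genes above 0 and 31 above that median, where 30 were above it with TMM. By edgeR's test 0 rose and 0 fell, where 3.7% and 3.07% of all genes did. At an unadjusted p under 0.05, 7 were higher and 3 lower, against 13.6% and 9.8% of all genes. DESeq2 called 4 higher (Bub1b, Kif2c, Kif20a and Ncapd2) and 1 lower (Smc2), against 6.51% and 5.51%. Without MLL-ENL preGM replicate 1 the median was -0.04, and without both libraries that stood apart it was -0.09, against 0.04 over all genes. In that fit 1 of the 47 genes fell, the cyclin B2 gene Ccnb2, and 0 rose, against 3.62% and 3.52% of all genes. The log2 change of Ccnb2 was -0.51 ± 0.12 (SE, adjusted p = 0.0177) there and -0.10 ± 0.31 (SE, adjusted p = 0.877) with all libraries.

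The groups were fully apart in 10 genes. Cdc25b, Bub1b and Ncapd2 had every MLL-ENL library above every WT library, against 15% of all genes. Mybl2, Cdc20, Ube2c, Cenpf, Mki67, Smc2 and Smc4 had every MLL-ENL library below, against 12.8% of all genes. The share of the 47 genes fully below (7 genes) was thus close to that of all genes, and the share fully above (3 genes) was under it. Bub1b had 174, 45.5 and 50.4 CPM in MLL-ENL preGM, against 37.8, 35.4 and 37.7 CPM in WT preGM. The WT libraries lay close together, and MLL-ENL replicate 1 was far above its partners, which were themselves above WT. Its log2 change was 1.29 ± 0.39 (SE, adjusted p = 0.0595), the lowest p of the 47 here. Ncapd2 had 168, 81.4 and 102 CPM in MLL-ENL preGM, against 69.6, 65.3 and 69.3 CPM in WT preGM, a pattern of the same shape, with a log2 change of 0.79 ± 0.25 (SE, adjusted p = 0.0766). Cdc25b had 25.96, 10.1 and 12.01 CPM in MLL-ENL preGM, against 9.61, 8.38 and 9.25 CPM in WT preGM, where MLL-ENL replicates 2 and 3 were just above WT, and a log2 change of 0.82 ± 0.34 (SE, adjusted p = 0.158).

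Among those below, Mybl2 had 38.6, 38.5 and 36.7 CPM in MLL-ENL preGM, against 42.4, 54.97 and 40.9 CPM in WT preGM, and its log2 change was -0.28 ± 0.25 (SE, adjusted p = 0.508). Ube2c had 142, 298 and 278 CPM in MLL-ENL preGM, against 353, 474 and 331 CPM in WT preGM: MLL-ENL replicate 1 was lowest and WT replicate 2 highest, and the log2 change was -0.69 ± 0.29 (SE, adjusted p = 0.164). Cenpf read 65.5, 54.5 and 65.1 CPM in MLL-ENL preGM, against 72.9, 95.5 and 65.7 CPM in WT preGM, a narrow separation, with a log2 change of -0.34 ± 0.22 (SE, adjusted p = 0.366). Mki67 had 148, 134 and 147 CPM in MLL-ENL preGM, against 193, 263 and 171 CPM in WT preGM, where the 3 MLL-ENL libraries were close together and the log2 change was -0.54 ± 0.25 (SE, adjusted p = 0.196). Smc2 had 274, 253 and 325 CPM in MLL-ENL preGM, against 385, 511 and 379.9 CPM in WT preGM, with a log2 change of -0.58 ± 0.24 (SE, adjusted p = 0.166). For Cdc20, which activates the anaphase-promoting complex, and Smc4, the partner of Smc2, the log2 changes were -0.26 ± 0.19 (SE, adjusted p = 0.424) and -0.39 ± 0.22 (SE, adjusted p = 0.304).

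The other named genes overlapped between the preGM groups. In the engine, Ccna2 had 90.4, 133 and 128 CPM in MLL-ENL preGM, against 122, 169.9 and 135 CPM in WT preGM, with MLL-ENL replicate 1 lowest. Cdk1 stood at 282, 536 and 493 CPM in MLL-ENL preGM, against 574, 307 and 559 CPM in WT preGM: the library that stood apart was the lowest in each group. Ccnb1 had 411, 261 and 284 CPM in MLL-ENL preGM, against 260.0, 82.3 and 306 CPM in WT preGM, with MLL-ENL replicate 1 highest and WT replicate 2 lowest. Plk1 showed the same order, at 178, 88.5 and 92.01 CPM in MLL-ENL preGM, against 93.8, 41.7 and 115 CPM in WT preGM. The log2 changes of these 4 genes ran from -0.28 (Ccna2) to 0.56 (Ccnb1), with adjusted p of 0.359 or more. Foxm1 had 19.8, 16.5 and 19.02 CPM in MLL-ENL preGM, against 15.4, 20.8 and 14.5 CPM in WT preGM, within the spread of either group.

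Ttk and Nuf2 were highest in MLL-ENL replicate 1. Ttk had 49.6, 16.5 and 23.8 CPM in MLL-ENL preGM, against 20.6, 17.1 and 22.2 CPM in WT preGM, and Nuf2 had 105, 71.8 and 80.6 CPM in MLL-ENL preGM, against 55.4, 38.3 and 75.3 CPM in WT preGM. In the passenger complex, Aurkb had 188, 137 and 145 CPM in MLL-ENL preGM, against 130.2, 42.2 and 142 CPM in WT preGM, with WT replicate 2 far below the other 5 libraries. Incenp and Birc5 had WT replicate 2 at the top. Incenp read 44.9, 48.3 and 46.8 CPM in MLL-ENL preGM, against 48.96, 75.1 and 39.3 CPM in WT preGM, and Birc5 188, 458 and 399 CPM in MLL-ENL preGM, against 470.1, 744 and 442 CPM in WT preGM. Birc5 was thus at its lowest in the MLL-ENL library that stood apart and at its highest in the WT one, and its log2 change was -0.66 ± 0.33 (SE, adjusted p = 0.233).

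Of the spindle and cytokinesis genes, Kif2c had 135, 18.8 and 31.5 CPM in MLL-ENL preGM, against 19.9, 21.97 and 24.8 CPM in WT preGM. MLL-ENL replicate 1 was several times above the other 5 libraries, which lay together. Kif20a, a motor that carries the passenger complex to the midzone, had the same shape at 332, 56.7 and 74.2 CPM in MLL-ENL preGM, against 54.4, 65.4 and 63.3 CPM in WT preGM. Their log2 changes were 1.47 ± 0.49 (SE, adjusted p = 0.0882) and 1.34 ± 0.46 (SE, adjusted p = 0.101). Aurka had 182, 179 and 186 CPM in MLL-ENL preGM, against 194, 55.1 and 222 CPM in WT preGM, with even MLL-ENL values and WT replicate 2 low. Hmmr had 142, 76.2 and 102 CPM in MLL-ENL preGM, against 141, 185 and 148 CPM in WT preGM, and Kif23 had 101, 40.1 and 45.4 CPM in MLL-ENL preGM, against 56.1, 41.5 and 50.7 CPM in WT preGM, where the groups again overlapped. Top2a had 736, 335 and 398 CPM in MLL-ENL preGM, against 401, 400.3 and 382 CPM in WT preGM: the MLL-ENL library that stood apart was high and the other 5 were close, for a log2 change of 0.31 ± 0.29 (SE, adjusted p = 0.526).

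**Figure D3:**
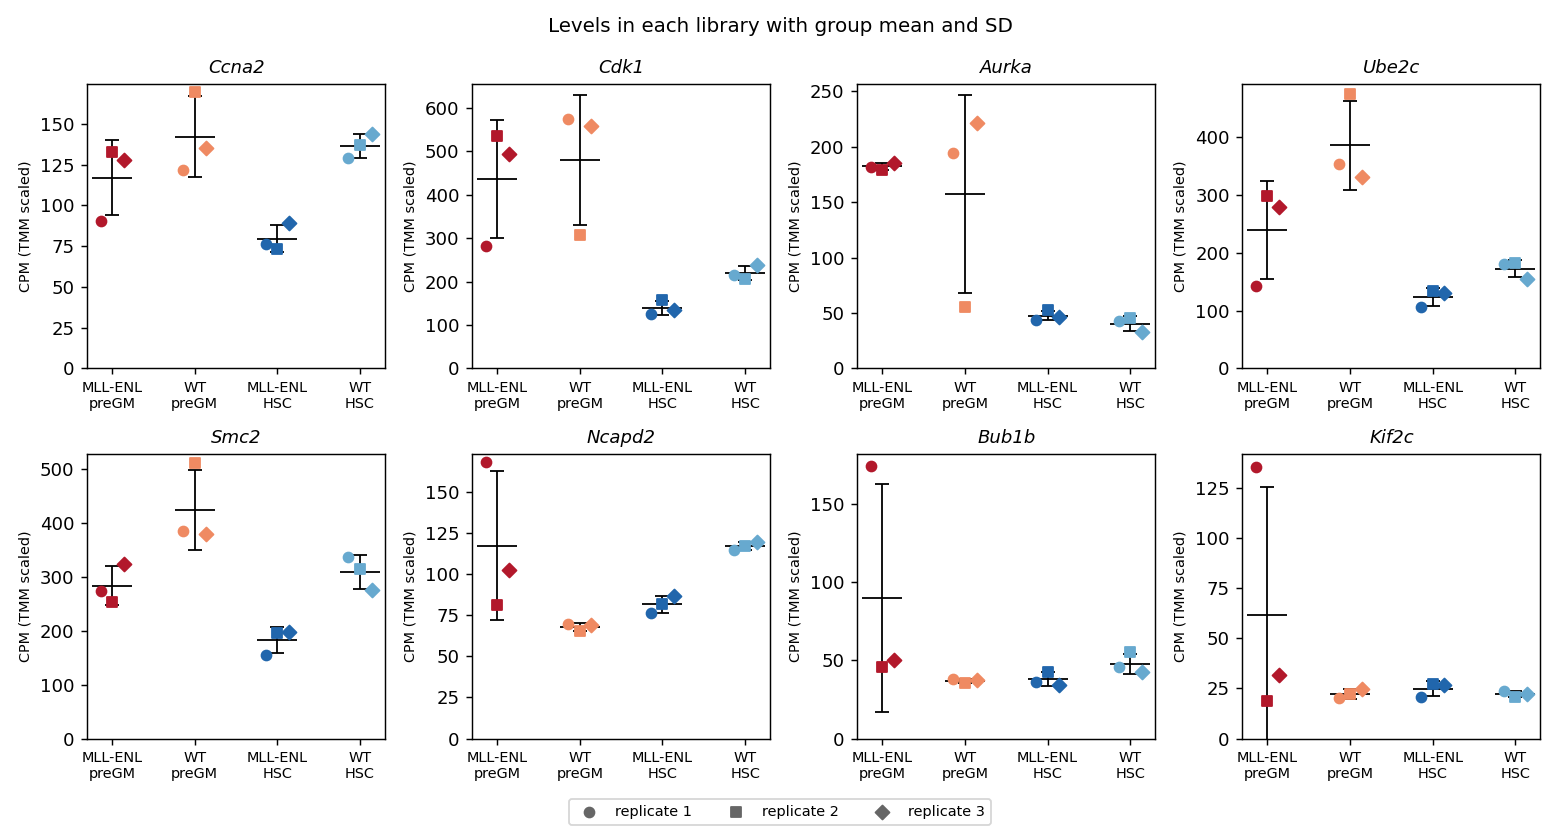
CPM of Ccna2, Cdk1, Aurka, Ube2c, Smc2, Ncapd2, Bub1b and Kif2c in each library, on a linear axis from 0, with a bar for the mean of 3 libraries and 1 SD (cut at 0 for Kif2c in MLL-ENL preGM). Circles, squares and diamonds are replicates 1, 2 and 3. MLL-ENL preGM replicate 1 is high for Kif2c (135 CPM) and Bub1b (174 CPM), and WT preGM replicate 2 is low for Aurka (55.1 CPM).

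The 2 libraries departed from their groups in many of the 47 genes. They stood apart over all genes too, and the share of all genes that differed by over 2-fold is not given here. In MLL-ENL preGM replicate 1, 18 genes differed by over 2-fold from the mean of replicates 2 and 3, 16 of them higher and 2 lower. Kif2c was 5.37-fold and Kif20a 5.06-fold higher there, while Birc5 and Ube2c, with log2 differences of -1.19 and -1.02, were the 2 lower ones. In WT preGM replicate 2, 9 genes were lower by over 2-fold and 0 higher. Bub3, which carries BUB1 and BUBR1 to kinetochores, was 3.98-fold lower there, and Aurka, Spc25, Ccnb1, Aurkb, Mad2l1, Ccnb2, Plk1 and Cdc25c were the others. Intron counts per 100 gene counts were 3.50 in MLL-ENL preGM replicate 1 (1.73 and 1.49 in its partners) and 2.01 in WT preGM replicate 2 (1.65 and 1.24). The median share of a gene's counts on the 5′ side of the middle of its exons was 33.5% in MLL-ENL preGM replicate 1 (25.9% and 26.2% in its partners) and 24.1% in WT preGM replicate 2 (28.6% and 28.2%).

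**Figure D4:**
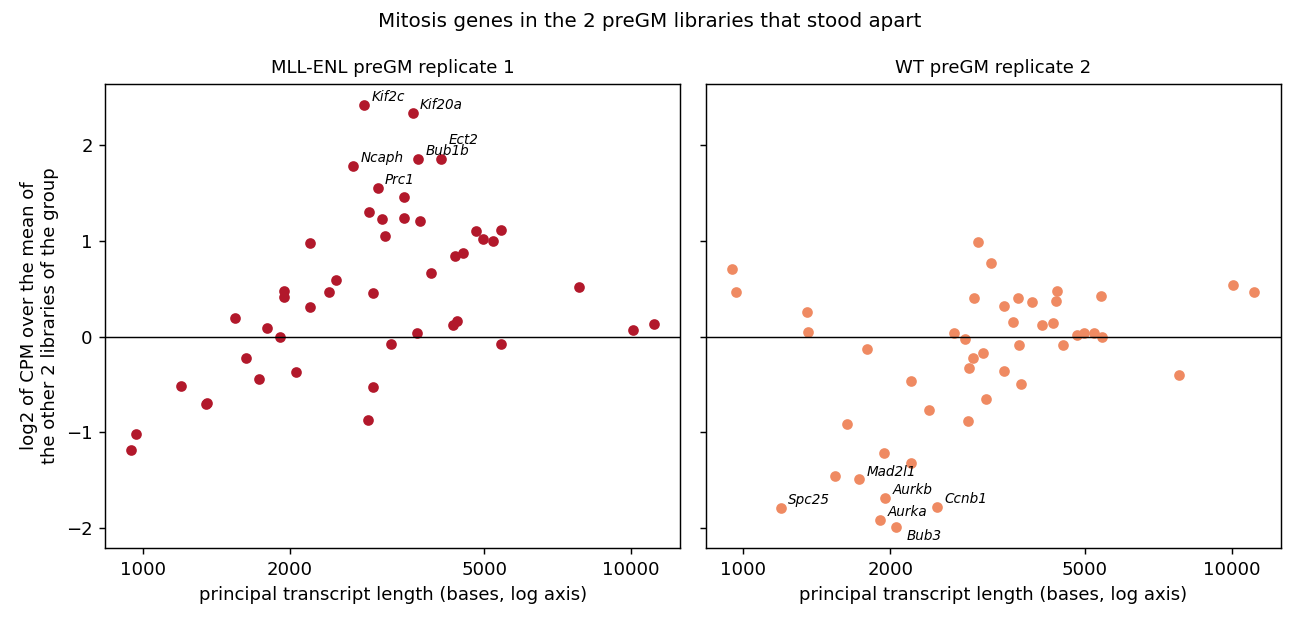
Log2 of the CPM of each of the 47 genes in MLL-ENL preGM replicate 1 (left) and WT preGM replicate 2 (right) over the mean of the other 2 libraries of its group, against the length of its principal transcript in bases. On the left the differences run from -1.19 (Birc5) to 2.42 (Kif2c), on the right from -1.99 (Bub3) to 0.99 (Prc1).

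Marker lists also differed between the preGM groups. The granulocyte and monocyte list summed to 11350 to 15787 CPM in MLL-ENL preGM and 28914 to 31985 CPM in WT preGM, with 0 of 19 genes higher and 16 lower by the test. Its most abundant genes were Mpo, with a mean of 7955 CPM in MLL-ENL preGM and 5252 CPM in WT preGM, and Elane, with 2274 and 11923 CPM. The mast cell, basophil and eosinophil list gave 298 to 341 CPM in MLL-ENL preGM and 1617 to 2646 CPM in WT preGM. The stem cell list gave 174 to 334 CPM in MLL-ENL preGM and 87.7 to 99.3 CPM in WT preGM, and the megakaryocyte and erythroid list 792 to 1222 CPM and 252 to 438 CPM. The lymphoid list gave 47.8 to 88.1 CPM in MLL-ENL preGM and 53.9 to 97.5 CPM in WT preGM. MLL-ENL preGM replicate 1 was the top of its group for the stem cell list, at 334 CPM with 174 and 175 in its partners. It was also the top for the granulocyte and monocyte list and for the stromal list (126 CPM, with 43.9 and 48.6). For the megakaryocyte and erythroid, mast cell and lymphoid lists it was the lowest. The part of these lists in the mitotic levels was not tested.

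Whether MLL-ENL went with a different change in preGM than in HSC was tested by the difference of the 2 log2 changes, preGM minus HSC. It was above 0 in 42 of the 47 genes and below in 5, where 53.7% and 46.3% of all genes were, with a median of 0.48 against 0.07 over all genes. By edgeR's test 0 of the 47 passed, where 1.08% of all genes were higher and 2.06% lower. At an unadjusted p under 0.05, 8 were higher and 0 lower, against 7.78% and 8.45%, and DESeq2 called 1 higher, Ncapd2, and 0 lower, against 2.56% and 4.31%. Without MLL-ENL preGM replicate 1 the median was 0.26. Ncapd2 was lower with MLL-ENL in HSC and higher in preGM, with no overlap in either, and a difference of 1.31 ± 0.36 (SE, adjusted p = 0.0598). Of all genes, 17% were fully lower in HSC and 15% fully higher in preGM, and the share that was both is not given here. Bub1b had a difference of 1.62 ± 0.55 (SE, adjusted p = 0.132), and Mki67 had 0.05 ± 0.35 (SE, adjusted p = 0.973). Without the 2 libraries that stood apart, 3 genes passed higher and 1 lower, against 6.73% and 5.44% of all genes. The 3 were Ncapd2 with 0.92 ± 0.17 (SE, adjusted p = 0.00302), Ccna2 with 0.80 ± 0.16 (SE, adjusted p = 0.00583) and Cdk1 with 0.52 ± 0.16 (SE, adjusted p = 0.0478). Ccnb2 was the 1 lower, with -0.62 ± 0.15 (SE, adjusted p = 0.0181).

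The comparison of preGM with HSC asks how mitotic transcripts differ between the 2 cell types within a strain. MLL-ENL preGM had higher levels than MLL-ENL HSC in 43 of the 47 genes and lower levels in 4, against 50% of all genes each, with a median log2 change of 0.78 against 0. In 25 genes every preGM library lay above every HSC library and in 0 below, against 25.9% and 28.9% of all genes. By edgeR's test 22 rose and 0 fell, where 20.4% of all genes rose and 21.1% fell. WT preGM against WT HSC gave 34 above 0 and 13 below, where 48.8% and 51.2% of all genes were, and a median of 0.23 against -0.03. In WT 8 genes rose and 2 fell, where 18.4% and 20.1% of all genes did, and 14 were fully above and 7 fully below, against 23.6% and 24.8%. The share of WT genes that rose was thus close to that of all genes. These 2 comparisons use separate libraries, and the test of their difference is the one above, which called none of the 47.

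These directions depend on how the libraries were scaled. With library size alone in place of TMM, the median of all genes was -0.56 in MLL-ENL preGM against HSC and -0.73 in WT preGM against HSC. Then 6 of the 47 genes rose and 3 fell in MLL-ENL cells (7.75% and 35.1% of all genes), and 1 rose and 10 fell in WT cells (7.57% and 39.1%). Relative to the median of all genes, 43 genes were above it in MLL-ENL cells and 35 in WT cells under either scaling. The gap between the median of the 47 genes and that of all genes was 0.78 with TMM and 0.82 with library size in MLL-ENL cells, and 0.26 and 0.23 in WT cells. The values below are with TMM.

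Mybl2 had the lowest p of the 47 in MLL-ENL cells. It had 38.6, 38.5 and 36.7 CPM in MLL-ENL preGM, against 18.8, 12.8 and 9.19 CPM in MLL-ENL HSC, with a log2 change of 1.48 ± 0.25 (SE, adjusted p = 0.000302). In WT cells its log2 change was 1.05 ± 0.25 (SE, adjusted p = 0.0037), and it rose in both, while Foxm1 had 0.23 in MLL-ENL and 0.23 in WT cells and did not pass.

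In the engine, Ccnb1, Cdk1 and Plk1 rose in both strains. Cdk1 had a mean of 437 ± 136 CPM in MLL-ENL preGM and 139 ± 16.97 CPM in MLL-ENL HSC, a log2 change of 1.65 ± 0.31 (SE, adjusted p = 0.000624), where ± on a mean is 1 SD of 3 libraries. In WT cells it had 480.1 ± 150.4 CPM in preGM and 219.9 ± 15.9 CPM in HSC, a log2 change of 1.13 ± 0.30 (SE, adjusted p = 0.00838). Ccnb1 had the largest log2 change of the 47 in MLL-ENL cells, 2.05 ± 0.37 (SE, adjusted p = 0.000526), and 1.25 ± 0.37 (SE, adjusted p = 0.0133) in WT cells. It has near-identical pseudogenes, the closest with 99.2% identity over 1287 bases, though none of these copies held more than 8 counts in a library. Plk1 had 1.71 ± 0.36 (SE, adjusted p = 0.00149) in MLL-ENL cells and 1.29 ± 0.36 (SE, adjusted p = 0.00962) in WT cells. Cdc25b went the other way: it fell in WT preGM, with -1.17 ± 0.34 (SE, adjusted p = 0.0124), and had -0.28 ± 0.33 (SE, adjusted p = 0.53) in MLL-ENL cells. Ccna2 had 0.55 ± 0.23 (SE, adjusted p = 0.0667) in MLL-ENL cells and 0.06 ± 0.23 (SE, adjusted p = 0.868) in WT cells, and the WT value was -0.66 with library size alone.

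Among the checkpoint genes, Bub1b, Bub3, Mad2l1 and Ube2c rose in MLL-ENL cells, and Ube2c in WT cells too. Mad2l1, which encodes the checkpoint's MAD2, had 1.18 ± 0.33 (SE, adjusted p = 0.00913), and Bub3 1.43 ± 0.39 (SE, adjusted p = 0.00792). Ube2c had 0.96 ± 0.29 (SE, adjusted p = 0.0147) in MLL-ENL cells and 1.16 ± 0.29 (SE, adjusted p = 0.00501) in WT cells. Of the 7 kinetochore genes, Ndc80 alone passed, in MLL-ENL cells, with 0.94 ± 0.27 (SE, adjusted p = 0.0111). In the passenger complex Birc5 and Cdca8, the borealin gene, rose in both strains and Aurkb in MLL-ENL cells. Birc5 had 1.39 ± 0.33 (SE, adjusted p = 0.0037) in MLL-ENL cells and 1.34 ± 0.33 (SE, adjusted p = 0.00487) in WT cells, and Aurkb had 1.57 ± 0.35 (SE, adjusted p = 0.00233) in MLL-ENL cells.

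Aurka had the largest log2 change in WT cells. It had 182, 179 and 186 CPM in MLL-ENL preGM against 43.8, 52.6 and 46.8 CPM in MLL-ENL HSC, and 194, 55.1 and 222 CPM in WT preGM against 42.5, 45.7 and 33.2 CPM in WT HSC. The preGM libraries were above the HSC libraries in both strains, WT replicate 2 by the least. The log2 changes were 1.93 ± 0.37 (SE, adjusted p = 0.000802) in MLL-ENL cells and 1.96 ± 0.37 (SE, adjusted p = 0.000739) in WT cells. In MLL-ENL cells its activator Tpx2, the motor Kif11, Kif2c and Hmmr also rose, as did Ect2, which activates RhoA at the division site, and Kif20a. Of the chromosome group, Smc2, Ncapg and Ncaph rose in MLL-ENL cells, with log2 changes of 0.63 to 1.21. Of the 22 genes that rose in MLL-ENL cells, 9 were not called without MLL-ENL preGM replicate 1, namely Bub1b, Tpx2, Kif11, Kif2c, Hmmr, Ect2, Kif20a, Ncapg and Ncaph. Kif2c, at 135, 18.8 and 31.5 CPM in MLL-ENL preGM against 20.5, 27.2 and 26.5 CPM in MLL-ENL HSC, then had a log2 change of 0.03 (SE 0.23, edgeR adjusted p = 0.924). When only these 2 groups were fitted 9 were also lost, with Smc2 in place of Kif20a, and without WT preGM replicate 2 Kif2c alone was lost. Ncapd2 fell in WT preGM, at 69.6, 65.3 and 69.3 CPM against 115, 117 and 119 CPM in WT HSC, with a log2 change of -0.78 ± 0.25 (SE, adjusted p = 0.0224). Mki67 and Top2a passed in neither strain, with log2 changes of -0.24 and 0.61 in MLL-ENL cells and -0.29 and -0.22 in WT cells.

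Leaving out the 2 libraries that stood apart gave 23 higher and 1 lower in MLL-ENL cells, with 16 of the 22 genes above among the 23, where 25.1% and 26.5% of all genes passed. In WT cells it gave 18 higher and 4 lower, where 25.6% and 25.3% of all genes passed. Counted by exon, 668 of 725 exons (92.1%) were higher in MLL-ENL preGM than in MLL-ENL HSC, and 417 of 633 (65.9%) were higher in WT preGM than in WT HSC. Exons of the same gene are not independent, and the share over exons of all genes is not given here. The 5′ share of counts differed between the cell types as well, at a median of 25.9% to 33.5% in MLL-ENL preGM against 20.8% to 23.9% in MLL-ENL HSC, and 24.1% to 28.6% in WT preGM against 18.5% to 20.3% in WT HSC. Its part in the changes was not tested.

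**Figure D5:**
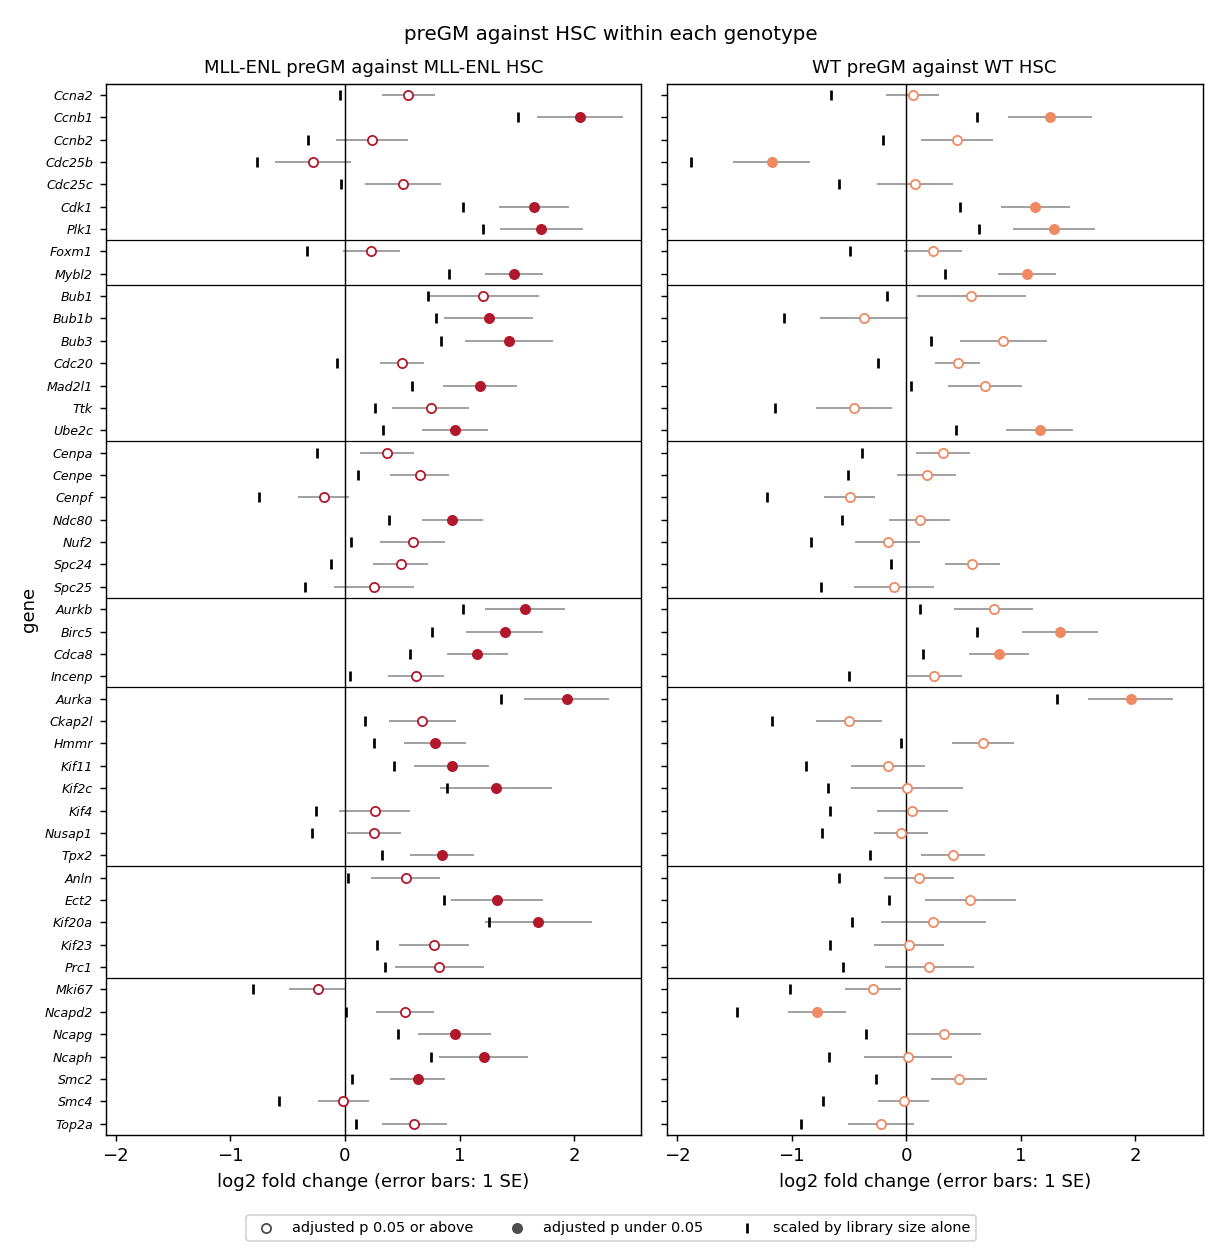
Log2 change of each of the 47 genes, preGM over HSC, in MLL-ENL cells (left) and WT cells (right), by role, with bars of 1 SE from the edgeR fit. Filled points have an adjusted p under 0.05 (22 in MLL-ENL and 10 in WT cells), and black ticks show the change with library size alone in place of TMM, which lies lower for each gene.

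Other genes of the same pathways were read from 4 lists. With MLL-ENL, 3.19% of all genes rose and 0.929% fell in HSC, and 3.7% and 3.07% did in preGM. Of 87 further mitosis genes, 0 passed in HSC, with a median log2 change of -0.26, and 1 rose in preGM with MLL-ENL, Depdc1b (1.51 ± 0.42, SE, adjusted p = 0.0404). Its log2 change was 0.76 without MLL-ENL preGM replicate 1 (edgeR adjusted p = 0.266) and 1.51 without WT preGM replicate 2 (adjusted p = 0.129), and it passed under 12 of 25 alternatives. In preGM against HSC, 41 rose (47.1%) and 1 fell (1.15%) in MLL-ENL cells, against 20.4% and 21.1% of all genes. In WT cells 12 rose (13.8%) and 3 fell (3.45%), against 18.4% and 20.1%. With library size alone, 3 rose and 7 fell in MLL-ENL cells, against 7.75% and 35.1% of all genes. In WT cells 2 then rose and 21 fell, against 7.57% and 39.1%. With TMM, the 5 with the lowest p were Spdl1, Cks1b, Kpna2, Ska1 and Tacc3 in MLL-ENL cells, with log2 changes of 1.26 to 2.50. In WT cells they were Cdca3, Psrc1, Cks2, Ska1 and Cks1b, of which Psrc1 fell by 1.40. Cks1b and Cks2 encode small subunits that bind CDK1.

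Among 28 genes of the anaphase-promoting complex and cohesin, Ube2s, which extends ubiquitin chains on targets of the complex, fell in preGM with MLL-ENL (log2 change -1.16 ± 0.30, SE, adjusted p = 0.0307), and 0 passed in HSC. The Ube2s call was lost without MLL-ENL preGM replicate 1 (-0.99, edgeR adjusted p = 0.104), without WT preGM replicate 2 (-0.95, adjusted p = 0.124) and with library size alone (-0.84, adjusted p = 0.0831). In preGM against HSC 4 rose and 1 fell in MLL-ENL cells (Anapc15, Anapc16, Cdc23 and Anapc10, and Nipbl lower), and 5 rose and 2 fell in WT cells. Nipbl, the cohesin loader, fell in both. Cdc23 shares 507 bases at 100% identity with Kif20a. Strand was not used in the counting, so the rises of Cdc23 and Kif20a may rest in part on the same reads. Of all genes, 20.4% rose and 21.1% fell in MLL-ENL cells and 18.4% and 20.1% in WT cells. Scaled by library size alone, 1 of the 28 rose and 6 fell in MLL-ENL cells, against 7.75% and 35.1% of all genes, and 2 rose and 16 fell in WT cells, against 7.57% and 39.1%.

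Of 18 genes of the MuvB, retinoblastoma and E2F families, Rb1, which restrains entry into S phase, rose in HSC with MLL-ENL (log2 change 1.05 ± 0.22, SE, adjusted p = 0.0121) and E2f8 fell (-1.01 ± 0.24, adjusted p = 0.0274). Rb1 passed under 17 and E2f8 under 15 of 25 alternatives: the E2f8 call was lost when any 1 of the 6 HSC libraries was left out, and the Rb1 call without replicate 1 of either HSC group. In preGM E2f2 fell with MLL-ENL (-1.33 ± 0.28, SE, adjusted p = 0.00706), and it passed under 22 of 25 alternatives, each left-out library among them. In preGM against HSC, 4 rose (22.2%) and 5 fell (27.8%) in MLL-ENL cells, against 20.4% and 21.1% of all genes. In WT cells 0 rose and 5 fell (27.8%), against 18.4% and 20.1%. Rbl1 and Rbl2, the retinoblastoma relatives p107 and p130, were among the genes called. Scaled by library size alone, 1 rose and 10 fell in MLL-ENL cells, against 7.75% and 35.1% of all genes. In WT cells 0 then rose and 10 fell, against 7.57% and 39.1%.

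The 39 S phase genes moved most in MLL-ENL preGM against MLL-ENL HSC. There 30 rose (76.9%) and 0 fell, against 20.4% and 21.1% of all genes, with a median log2 change of 1.09. Rrm2, a subunit of ribonucleotide reductase, had 2.81 there and 2.02 in WT cells. In WT cells 6 of the 39 rose (15.4%) and 0 fell, against 18.4% and 20.1% of all genes. With library size alone these counts were 8 and 0 in MLL-ENL cells, against 7.75% and 35.1% of all genes. In WT cells they were 1 higher and 10 lower, against 7.57% and 39.1%. In HSC, 1 of the 39 fell with MLL-ENL, the replication licensing gene Cdt1 (-0.86 ± 0.21, SE, adjusted p = 0.0337), and the median was -0.52. The Cdt1 call was lost when any 1 of the 6 HSC libraries was left out. In the HSC-only fit 25 of them fell and 0 rose, and of the 87 further mitosis genes 15 fell and 2 rose. Of all genes, 8.69% fell and 8.99% rose in that fit. In preGM, the helicase subunit gene Mcm7 rose with MLL-ENL (0.95 ± 0.27, SE, adjusted p = 0.0477). It was 0.65 without MLL-ENL preGM replicate 1 (edgeR adjusted p = 0.107) and 0.81 without WT preGM replicate 2 (adjusted p = 0.102), and passed under 7 of 25 alternatives.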

How the data were processed

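Per the labels, an RNeasy micro kit gave the RNA and a SMARTer kit for low input the cDNA. The submitters' processing notes name edgeR, HTSeq, Bowtie2 2.1.0 and TopHat2 2.0.8 without saying what each did, and the build of the genome was not given in the sources used here. For each exon, intron and transcript the deposited files hold a count of reads, not normalized, and an RPKM that the authors scaled by length and library size, per the file headers. Of 93615 transcripts, 89664 (95.8%) matched GENCODE M21 on GRCm38 by identifier. Gene counts were summed here from the deposited exon counts over non-overlapping exons. Strand was not used in the counting: in 187 of 187 exons tested, reads were also counted in the intron of the opposite strand. Ccna2, Kif20a, Kif4, Ncapg and Ube2c share at least 10% of their exon bases with other genes, so their counts are uncertain to that extent.

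Genes that passed filterByExpr (minimum count 10, minimum total 15) were tested with edgeR 4.0.16 (TMM, robust glmQLFit and glmQLFTest, all 12 libraries in 1 fit), in 5 two-sided comparisons, with Benjamini-Hochberg adjustment over 15711 genes and a threshold of 0.05. Standard errors are the absolute log2 change over the square root of F. DESeq2 1.42.0, limma 3.58.1 on log2(RPKM + 0.1) and log2(RPKM + 1), other scalings, fits of the compared groups alone, exons on 1 side of the middle of each gene, and leaving out each replicate were the alternatives. Leaving out both libraries that stood apart was planned as well, and the principal transcript was added after seeing the data. Scripts were tested on simulated data. Exact permutation tests of 3 against 3 cannot go below p = 0.1 and were not used. The labels do not say that replicate numbers pair libraries, so the fit has no replicate block. Deviations of same-numbered replicates had correlations of -0.104 to 0.100, which cannot exclude pairing. Counts set the precision only as far as counting error goes, since the reads carry no molecular identifiers.

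The 47 genes and all lists were chosen with earlier results of these data known. Values in all libraries are given for Mki67, Top2a, Ccnb1, Cdk1, Plk1, Aurkb, Foxm1 and Mybl2, and for the gene with the lowest p of each role group in the genotype comparison of each cell type. Of the other pathway lists, up to 5 genes with the lowest p among those that passed are named per comparison. Aurka, Bub1, Bub3 and others named outside this rule were chosen after their values were seen.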

Additional observations from a re-analysis of the deposited data

Results flagged for a closer look

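Ncapd2 had an MLL-ENL change in preGM that exceeded its change in HSC by 1.31 on the log2 scale. It was picked out because every MLL-ENL library was above every WT library in preGM and below in HSC. Of all genes, 15% were fully higher in preGM and 17% fully lower in HSC, and the share that was both is not given here. The edgeR test of the Ncapd2 difference gave an adjusted p of 0.0598. Over 24 alternatives the adjusted p ran from 0.00302 to 0.507, with 5 of them past the threshold. In 3 further genes of the pathway lists the test of the difference between cell types itself passed. Of all genes, 1.08% passed higher and 2.06% lower. By list, 0 of the 87 further mitosis genes passed, and 1 of 28 anaphase-promoting complex and cohesin genes was lower (3.57%). In the MuvB, retinoblastoma and E2F list 1 of 18 was lower (5.56%), and 1 of 39 S phase genes was higher (2.56%).

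Ube2s, which encodes the chain-extending enzyme of the anaphase-promoting complex, had a difference of -1.998 (adjusted p = 0.0162). It had 9.25 ± 2.12 CPM in MLL-ENL preGM and 20.6 ± 4.97 CPM in WT preGM, and 15.3 ± 0.727 CPM in MLL-ENL HSC and 8.50 ± 3.44 CPM in WT HSC (SD, n = 3 each, edgeR adjusted p). Rb1 had a difference of -1.18 (edgeR adjusted p = 0.0477), with 16.3 ± 1.99 CPM in MLL-ENL preGM and 17.7 ± 2.91 CPM in WT preGM, and 46.2 ± 4.37 CPM in MLL-ENL HSC and 22.3 ± 2.97 CPM in WT HSC. The replication initiation gene Mcm10 had a difference of 2.01 (edgeR adjusted p = 0.0294), with 66.2 ± 42.3 CPM in MLL-ENL preGM and 37.8 ± 2.15 CPM in WT preGM, and 14.4 ± 2.24 CPM in MLL-ENL HSC and 33.1 ± 6.78 CPM in WT HSC. The Ube2s difference passed under 23 of 24 alternatives, the Mcm10 difference under 11 and the Rb1 difference under 4. With the replicate number as a block, Mcm10 had 1.97 (edgeR adjusted p = 0.0616) and Rb1 -1.19 (adjusted p = 0.0773). With library size alone, Mcm10 had 2.23 (edgeR adjusted p = 0.0742) and Rb1 -1.03 (adjusted p = 0.137). Without MLL-ENL preGM replicate 1, where Mcm10 stood at 114.9 CPM, its difference was 1.35 (edgeR adjusted p = 0.0162), and without WT preGM replicate 2 it was 2.05 (adjusted p = 0.0526). With 3 libraries per group, no separate test was run for single values of these genes that stand apart from their group.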

How the results depend on the processing

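The counts of the 47 genes past the threshold depended on the fit. In HSC (0 higher and 0 lower), the count lower was 3 by DESeq2, 1 by limma on log2(RPKM + 1), 15 with only the groups compared, 18 without both libraries that stood apart, and 0 to 3 when 1 library was left out. In preGM (0 and 0), the count higher was 4 by DESeq2, 1 with library size alone, 1 without the filter on low counts and 0 to 5 with 1 library left out, and the count lower was 1 by DESeq2 and 1 without both libraries. For the difference between cell types (0 and 0), the count higher was 1 by DESeq2, 1 with exons on the 3′ side, 3 without both libraries and 0 to 2 with 1 library left out, and the count lower was 1 without both. In MLL-ENL preGM against MLL-ENL HSC (22 and 0), the count higher was 6 with library size alone, 5 under each pseudocount of limma, 8 with exons on the 5′ side and 12 to 28 with 1 library left out. The count lower there was 3 with library size alone, 2 under each pseudocount of limma, 1 without both and 0 to 1 with 1 library left out. In WT preGM against WT HSC (8 and 2), the count higher was 1 with library size alone, 13 by DESeq2, 1 under each pseudocount of limma, 2 with exons on the 5′ side, 18 without both and 5 to 13 with 1 library left out. The count lower there was 10 with library size alone, 7 under each pseudocount of limma, 1 with exons on the 5′ side, 4 without both and 0 to 4 with 1 library left out. Ccna2 in WT preGM against WT HSC, 0.06 on the log2 scale with TMM, was -0.66 with library size alone and -0.60 and -0.59 by limma with pseudocounts of 0.1 and 1, where it passed the threshold. The causes were not tested.

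The median of the 47 genes less that of all genes ran over the settings from -0.43 to -0.25 in HSC, -0.13 to 0.35 in preGM, 0.39 to 1.00 in MLL-ENL preGM against MLL-ENL HSC and -0.11 to 0.38 in WT preGM against WT HSC. With the replicate number as a block, 18 rose and 0 fell in MLL-ENL preGM against MLL-ENL HSC, 8 rose and 2 fell in WT preGM against WT HSC, and 0 passed elsewhere. Only 1 of 18 same-numbered pairs had deviations correlated above 0.1, against 4 of 36 pairs with other numbers. With 3 libraries per group, this cannot decide whether the numbers pair the libraries. The lowest count of any of the 47 genes in a library was 180, far above the floor of 3 counts, and each group holds 3 libraries.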
